A study of Homo sapiens with 5 samples.

Results

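The genes described here are 47 homologous recombination and Fanconi repair genes, chosen by name, as the rows of a deposited gene table whose symbol is on that list. All 47 had a row among the 13822 genes of the table, and 46 passed a floor on the level (a mean of at least 0.5 FPKM over the libraries), which left 12245 genes to test. The cells were RH4, an established human line of alveolar rhabdomyosarcoma, a soft tissue tumour with features of skeletal muscle. Every culture was transfected with an siRNA at 30 nM, given fresh medium at 24 h and harvested after a further 24 h. The 3 control cultures received a scrambled siRNA (si-SCR) and 2 cultures received an siRNA against the back-splice junction of circVAMP3 (si-circVAMP3), a circular RNA made from the VAMP3 gene, and the comparison asks which polyadenylated transcripts differ once that circle is targeted. The study describes the libraries of each group as biological replicates. No untransfected culture was part of the comparison, and all the libraries come from a single cell line and a single siRNA per group.

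Homologous recombination repairs a broken chromosome by copying the intact sister. Nucleases trim the broken ends, BRCA1, PALB2 and BRCA2 prepare the exposed strand, and that strand then finds and invades the matching sequence. The Fanconi pathway deals with strands that are chemically linked together: a core complex attaches ubiquitin to the FANCD2 and FANCI pair at a stalled fork, nucleases unhook the link, and recombination restores the fork. Many of these genes are transcribed most in S and G2 phase, when a sister copy exists, and inherited loss of several of them predisposes to cancer.

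The siRNA carries the design of the experiment, so its sequence is shown, 5′ to 3′, with the bases from the start of VAMP3 exon 3 in capitals.

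si-circVAMP3: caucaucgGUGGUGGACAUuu

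The first 8 bases end exon 4 of VAMP3 (chr1:7778118-7778169, plus strand, GRCh38), and the next 11 begin exon 3 (chr1:7777160-7777318), the order found at the junction of a circle. Joined, these bases did not occur in the protein-coding VAMP3 transcript of the GENCODE annotation that was checked. The gene table has 1 value per gene, so the circle itself was not measured here. VAMP3, the host gene, encodes a vesicle membrane protein. Its level was 36.4, 35.4 and 37.4 FPKM (fragments scaled by gene length and library size) in the si-SCR libraries and 29.4 and 30.2 in the si-circVAMP3 libraries. Both si-circVAMP3 values lay under all the control values. The log2 difference was −0.29 (SE 0.0438, limma-adjusted p = 0.00502), which is 18.2% lower at a pseudocount of 0.1, and without si-circVAMP3 replicate 1 the adjusted p was 0.0507 (0.00205 to 0.0507 over the alternatives).

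Whole reads were worked back from the FPKM values, to within 0.001 of a read plus a rounding allowance that grows with the count, up to 0.0061. At the exon length of the GENCODE annotation 9506 of 13822 genes (68.8%) gave whole reads in all 5 libraries. For the others the shortest length that gave whole reads was taken, which may scale down the reads of some genes. The effective library size was 26672263, 24991642 and 24946721 reads in si-SCR replicates 1 to 3, and 18533740 and 28798388 in si-circVAMP3 replicates 1 and 2. The shallowest library was therefore in the smaller group. Replicates were distinct libraries: the chi-square per gene between pairs of control libraries was 4.07, 11.1 and 7.33, and between the si-circVAMP3 libraries it was 3.60, where sampling of reads alone gives about 1. The pairs that include si-SCR replicate 3 differed most, and this library stood somewhat apart from the other controls.

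RH4 identity was read from marker genes. Of 10 skeletal muscle markers 9 had a row, with DES the most abundant at a mean of 269.1 FPKM and MYF5 without a row, and all 9 markers associated with the PAX3-FOXO1 fusion of this tumour had one, led by FGFR4 at 213 FPKM. Of the epithelial markers only KRT8 had a row, at 0.316, 0.215 and 0.256 FPKM in si-SCR and 0.651 and 0.5803 in si-circVAMP3, and of the endothelial markers only PECAM1, at 0.121, 0.0879 and 0.0777 against 0.153 and 0.103. Their means over the libraries were under the floor, so neither was tested. None of the 6 immune markers had a row. Fibroblast markers were led by COL3A1 at 30.6 FPKM, while COL1A2 and LUM had no row. The summed level of the muscle markers was 882, 885 and 784 FPKM in the control libraries against 728 and 720 in the si-circVAMP3 libraries, and that of the fusion-associated markers 335, 320 and 281 against 258 and 273. Summed fibroblast markers stood at 35.5, 32.8 and 33.3 FPKM against 31.1 and 28.6. In bulk RNA, fewer cells of a kind and less RNA per cell cannot be told apart.

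The repair genes divided almost evenly between the directions. Of the 46 tested, 10 (21.7%) were lower and 7 (15.2%) were higher in si-circVAMP3, where 15.8% and 14.4% of all genes tested were lower and higher. In either direction 17 of 46 (37.0%) were called at a limma-adjusted p under 0.05 (Benjamini-Hochberg over all genes tested), against 3701 of 12245 genes, or 30.2%. The median log2 difference over the 46 was −0.01 and that over all genes tested was 0.01. Group ranges did not overlap for 32 of the 46 (17 lower, 15 higher), next to 58.5% of all genes tested. The shares called were somewhat above those of the whole table, and the gap was not tested.

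The changes were small. The called genes lay between a log2 difference of −0.36 (RAD51C) and 0.35 (RAD54L), or 21.9% lower to 27.7% higher. At the fold limit of 0.58 on the log2 scale, which 5.58% of all genes tested passed together with the adjusted p, limma called 0 of the repair genes. At an unadjusted p under 0.05, limma found 26 of them (56.5%, against 42.6% of all genes tested), with 0 past the fold limit, and limma voom on the recovered reads called 19 (41.3%, against 33.6%), again with 0 past the fold limit. These counts depend on the libraries: without si-SCR replicates 1, 2 or 3 limma called 8, 8 and 18 repair genes (17.4%, 17.4% and 39.1%, against 24.9%, 17.8% and 32.7% of all genes tested). Without si-circVAMP3 replicates 1 or 2 it called 3 and 4 (6.52% and 8.70%, against 10.7% and 10.5%), where the lone remaining library was taken to vary as the controls do. Library weights raised the calls to 26 (56.5%, against 40.2%), of which 16 were shared with the 17, and a fit with no intensity trend made 12 calls (26.1%, against 26.2%), all 12 among the 17.

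**Figure D1:**
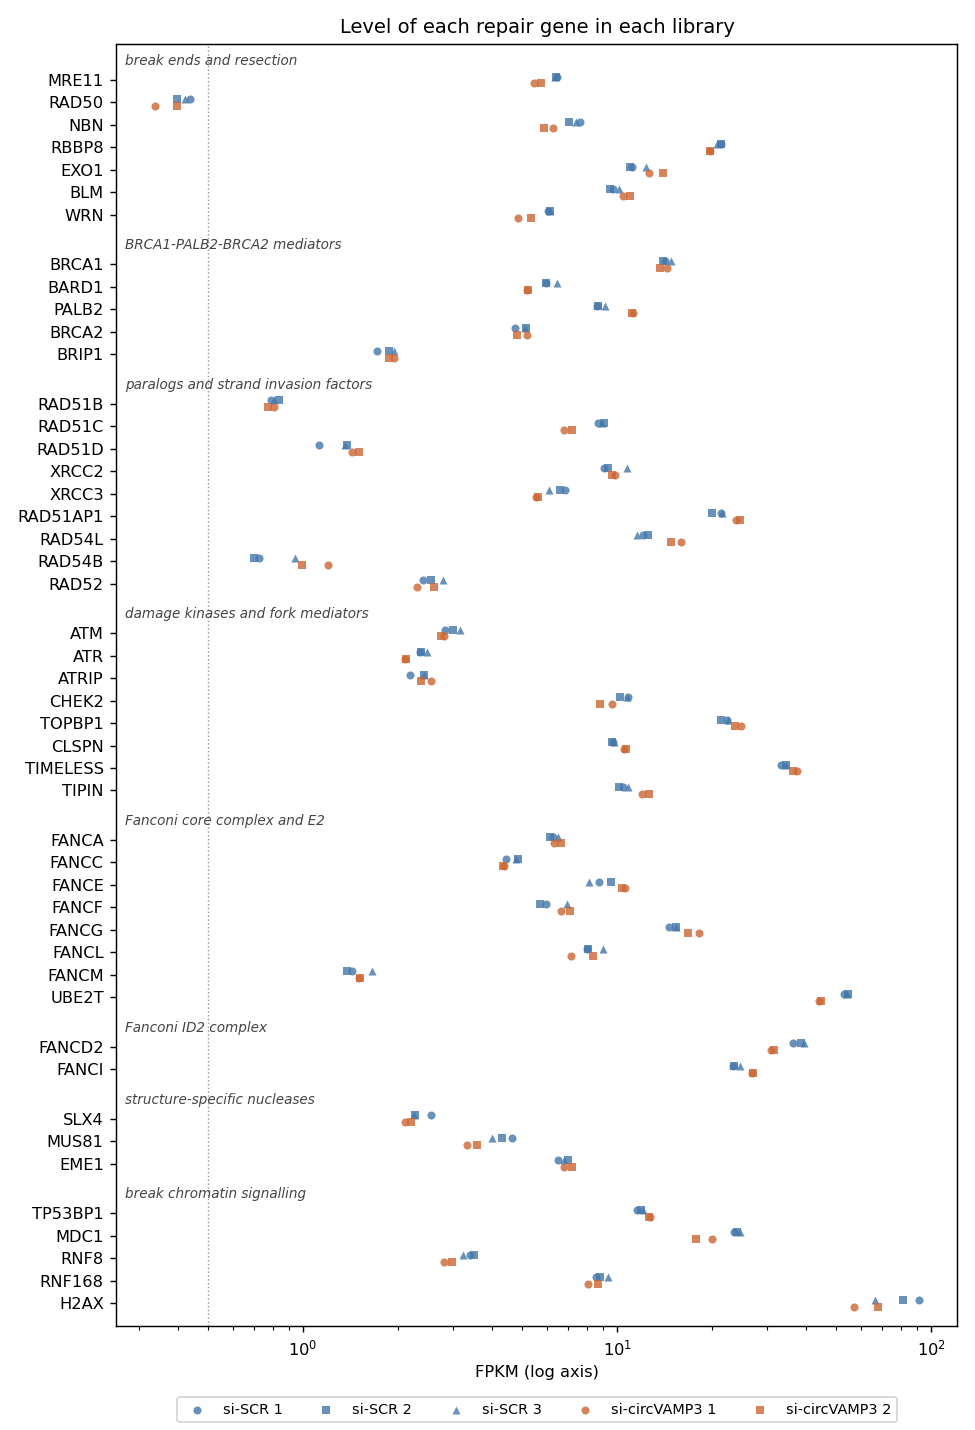
FPKM of each of the 47 repair genes in each library on a log axis, grouped by role, with 3 si-SCR libraries in blue and 2 si-circVAMP3 libraries in orange (marker shapes are replicates). The dotted line is the floor of 0.5 FPKM, and RAD50 alone lies under it. H2AX is at the top of the range, with a mean of 80.0 FPKM in si-SCR.

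Levels spanned a wide range. In si-SCR the mean was highest for H2AX (80.0 FPKM), UBE2T (53.7), FANCD2 (38.0) and TIMELESS (34.1), and lowest for RAD50 (0.418), RAD54B (0.789), RAD51B (0.814) and RAD51D (1.29). The median over the 47 genes was 8.13 FPKM, taking the mean over the libraries. FPKM are scaled by gene length, and the length that gave whole reads differed widely. It was 27234 bases for ATR, 23972 for ATM and 11304 for RAD51D, against 1807 for FANCG. A length over all annotated exons can lower the FPKM of some genes more than others, so levels are only roughly comparable between genes. Exon sharing with other genes makes a few of them more uncertain.

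The genes of break ends and their resection come first in the pathway. The MRE11, RAD50 and NBN proteins form the complex that holds broken ends and starts their trimming. RBBP8 (CtIP) activates that step, EXO1 and the BLM helicase extend it, and WRN is a helicase of the same family as BLM. Of the 6 tested, 3 fell and 0 rose by limma, with a median log2 difference of −0.15. At an unadjusted p under 0.05, 4 were lower and 1, EXO1, was higher, and limma voom called 3 lower and EXO1 higher. For comparison with this group and those that follow, limma called 15.8% of all genes tested lower and 14.4% higher. At an unadjusted p under 0.05 it found 2634 of the 12245 genes lower and 2584 higher. Limma voom called 2106 of them lower and 2010 higher.

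MRE11 was at 6.46, 6.37 and 6.36 FPKM in si-SCR and 5.45 and 5.72 in si-circVAMP3. NBN was at 7.61, 7.03 and 7.40 FPKM in si-SCR and 6.26 and 5.84 in si-circVAMP3. For WRN the control libraries read 6.01, 6.13 and 6.11 FPKM, and the si-circVAMP3 libraries 4.84 and 5.31. In each of the 3 genes both si-circVAMP3 libraries lay under all 3 controls. The log2 difference of MRE11 was −0.19 (SE 0.0573, limma-adjusted p = 0.0441), that of NBN −0.28 (SE 0.0646, adjusted p = 0.0207) and that of WRN −0.26 (SE 0.0648, adjusted p = 0.0265). The MRE11 call ended when any 1 of the 5 libraries was left out (limma-adjusted p = 0.0502 to 0.228) and with no filter (0.0511). The NBN call ended without si-SCR replicate 1 (0.0524) or si-circVAMP3 replicate 1 (0.0668) or 2 (0.138), and the WRN call ended without si-SCR replicate 1 (0.0524) or 2 (0.087) or si-circVAMP3 replicate 1 (0.17) or 2 (0.0611), all limma-adjusted p.

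RAD50 did not pass the floor. Its values were 0.436, 0.398 and 0.421 FPKM in si-SCR and 0.337 and 0.398 in si-circVAMP3, on 66 to 123 reads per library, and the groups overlapped. With no filter the log2 difference was −0.15 (95% interval −0.47 to 0.16, limma-adjusted p = 0.434). In the GENCODE annotation 76.9% of the RAD50 exon bases also belong to another protein-coding gene model of the same strand that has no row in the table, and a read shared by both models would be counted for neither under the counting mode the authors used. The level of RAD50 is therefore uncertain, and it is not comparable with those of MRE11 and NBN.

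EXO1 was higher in both si-circVAMP3 libraries than in all the controls, with a log2 difference of 0.21 (95% interval 0.03 to 0.38, limma-adjusted p = 0.0745). It was called by limma voom (0.0449), with library weights (0.016) and without si-SCR replicate 3 (0.26, limma-adjusted p = 0.0229, with a range of 0.016 to 0.368 over the alternatives). BLM showed a log2 difference of 0.13 (95% interval −0.01 to 0.26, limma-adjusted p = 0.129) and RBBP8 one of −0.10 (95% interval −0.20 to −0.00, adjusted p = 0.112). These intervals leave room for changes of the size seen for MRE11. BLM and RBBP8 were called with library weights (limma-adjusted p = 0.0387 and 0.0437).

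The BRCA1-PALB2-BRCA2 axis acts on resected ends. BARD1 is the obligate partner of BRCA1, PALB2 bridges BRCA1 and BRCA2, and BRIP1 is a helicase that binds BRCA1. Of these 5 genes 1 rose and 1 fell, with a median log2 difference of −0.00.

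PALB2 was at 8.62, 8.70 and 9.13 FPKM in si-SCR and 11.3 and 11.2 in si-circVAMP3. The si-circVAMP3 libraries were close to each other and above every control. The log2 difference was 0.34 (SE 0.0525, limma-adjusted p = 0.00513), or 27.0% higher, and the call held in all 17 alternative analyses, which include leaving out each library. BARD1 went the other way, from 5.95, 5.93 and 6.43 FPKM in si-SCR to 5.18 and 5.22 in si-circVAMP3. Its groups did not overlap, and its log2 difference was −0.23 (SE 0.0639, limma-adjusted p = 0.038). The BARD1 call ended when any 1 of the 5 libraries was left out (adjusted p = 0.052 to 0.168).

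BRCA1 and BRCA2 stayed within the spread between replicates. BRCA1 was at 14.2, 13.97 and 14.8 FPKM in si-SCR and 14.5 and 13.8 in si-circVAMP3. BRCA2 was at 4.73, 5.12 and 5.10 FPKM in si-SCR and 5.17 and 4.80 in si-circVAMP3. Both pairs of groups overlapped. The log2 difference of BRCA1 was −0.02 (95% interval −0.15 to 0.10, limma-adjusted p = 0.775) and that of BRCA2 was −0.00 (95% interval −0.17 to 0.17, adjusted p = 0.99), so changes of the size seen for PALB2 lay outside both intervals. BRIP1 showed 0.05 (95% interval −0.18 to 0.27).

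The pair of partners of BRCA1 and BRCA2 that moved apart was also compared within each library. The ratio of PALB2 to BARD1 FPKM was 1.45, 1.47 and 1.42 in si-SCR and 2.17 and 2.14 in si-circVAMP3. The pair was chosen after these genes had been called in opposite directions, so the ratio restates those calls and is no further test.

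The next group of genes acts at strand invasion. RAD51B, RAD51C, RAD51D, XRCC2 and XRCC3 are paralogs that work in 2 complexes, RAD51AP1 and the RAD54L motor promote strand invasion, RAD54B is related to RAD54L, and RAD52 anneals strands. Of 9 genes 2 rose and 1 fell, and the median log2 difference was 0.01.

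RAD51C, which is part of both paralog complexes, was at 8.72, 9.12 and 8.99 FPKM in si-SCR and 6.76 and 7.18 in si-circVAMP3. The groups were well apart, and the log2 difference of −0.36 (SE 0.0567, limma-adjusted p = 0.00592) was the lowest among the 46 repair genes tested. Its call ended without si-circVAMP3 replicate 1 (−0.31, adjusted p = 0.0554, and 0.00169 to 0.0554 over the alternatives). RAD54L was at 12.1, 12.5 and 11.6 FPKM in si-SCR and 16.0 and 14.9 in si-circVAMP3, a log2 difference of 0.35 (SE 0.0584, limma-adjusted p = 0.00674). All the si-circVAMP3 values again lay beyond the control range, and the call ended without si-circVAMP3 replicate 1 (0.30, adjusted p = 0.0607, and 0.00281 to 0.0607 over the alternatives). RAD51AP1 was at 21.4, 20.1 and 21.6 FPKM in si-SCR and 24.0 and 24.7 in si-circVAMP3, with no overlap and a log2 difference of 0.21 (SE 0.0498, limma-adjusted p = 0.0221). That call ended without si-SCR replicate 2 (0.0708) or si-circVAMP3 replicate 1 (0.0921) or 2 (0.137), and with no intensity trend (0.0515).

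RAD54B had the highest log2 difference of the 46, 0.43, but a wide 95% interval of 0.05 to 0.82 (limma-adjusted p = 0.0871). Its level was under 1.2 FPKM in all the libraries, and it was called with library weights (adjusted p = 0.0184) and without si-SCR replicate 3 (0.55, adjusted p = 0.0288, and 0.0184 to 0.368 over the alternatives). In the annotation 66.0% of its exon bases are shared with FSBP on the same strand, so reads of these genes were hard to assign. XRCC3 was lower in both si-circVAMP3 libraries than in any control, at a log2 difference of −0.22 (95% interval −0.39 to −0.05, limma-adjusted p = 0.0532), and was called by limma voom (−0.22, adjusted p = 0.0327), with library weights (adjusted p = 0.0129) and without si-SCR replicate 3 (−0.27, adjusted p = 0.0176), with a range of 0.0129 to 0.215 over the alternatives. XRCC2 showed 0.01 (95% interval −0.19 to 0.20), RAD51D 0.18 (−0.10 to 0.47), RAD52 −0.07 (−0.31 to 0.17) and RAD51B −0.04 (−0.30 to 0.23).

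**Figure D2:**
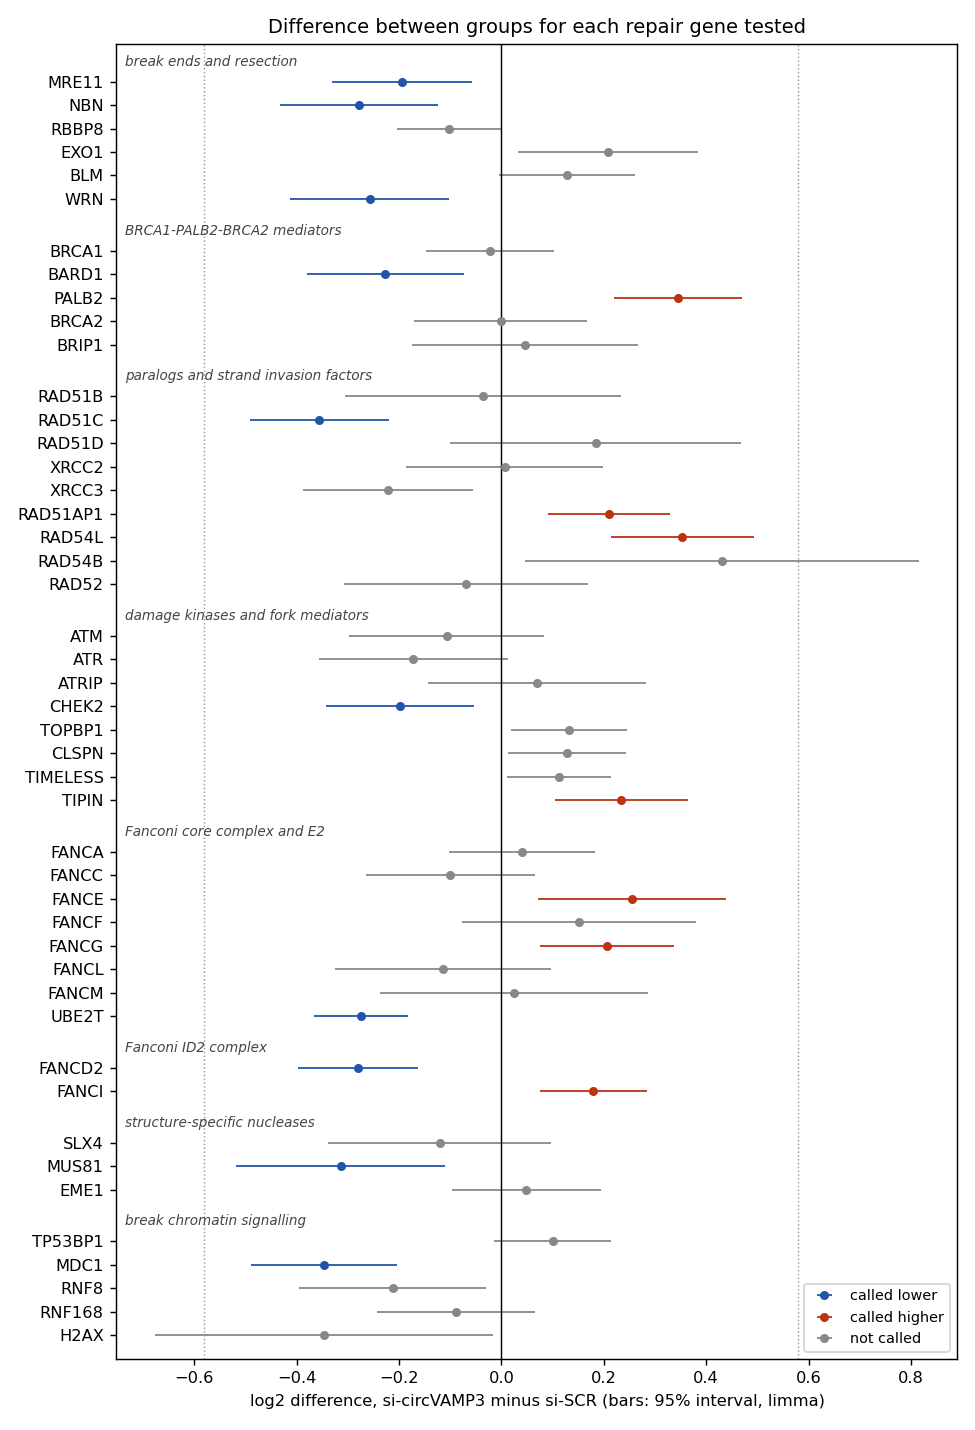
Log2 difference (si-circVAMP3 minus si-SCR) of the 46 repair genes tested, with the 95% interval from limma as a bar, grouped by role. Blue genes were called lower, red genes higher and grey genes neither, and dotted lines mark a log2 difference of 0.58 in each direction, which no point reaches.

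The damage kinases and fork mediators sense breaks and stalled forks. ATM responds to breaks and ATR, with its partner ATRIP and activator TOPBP1, to single-stranded DNA. CHEK2 is a kinase downstream of ATM, CLSPN passes the ATR signal to CHEK1, and TIMELESS and TIPIN form a pair that travels with the fork. Of the 8 genes 1 rose and 1 fell, and the median log2 difference was 0.09.

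CHEK2 was at 10.8, 10.3 and 10.7 FPKM in si-SCR and 9.66 and 8.83 in si-circVAMP3. The groups did not overlap, and the log2 difference was −0.20 (SE 0.0606, limma-adjusted p = 0.0489), just inside the limit. The CHEK2 call ended when any 1 of the 5 libraries was left out (limma-adjusted p = 0.0669 to 0.27), and also with no filter (0.052), with median centring (0.0508), with upper quartile scaling (0.0545) and with no intensity trend (0.0744).

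TIPIN was at 10.4, 10.2 and 10.8 FPKM in si-SCR and 12.0 and 12.7 in si-circVAMP3. Every si-circVAMP3 value was above the controls, and the log2 difference was 0.23 (SE 0.0542, limma-adjusted p = 0.0203). Leaving out si-SCR replicate 2 (0.0742) or si-circVAMP3 replicate 1 (0.0729) or 2 (0.138) ended the call. A processed pseudogene, RPL9P25, shares 21.1% of the TIPIN exon bases, so its count is less certain. The partner TIMELESS moved in the same direction, at 0.11 (95% interval 0.01 to 0.21), as did CLSPN at 0.13 (0.01 to 0.24) and TOPBP1 at 0.13 (0.02 to 0.24). None of these 3 passed the main test (limma-adjusted p = 0.0915, 0.087 and 0.0765). With library weights CLSPN (limma-adjusted p = 0.04) and TOPBP1 (0.0227) were called.

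The kinases themselves had low FPKM, on 1246 to 1901 reads per library for ATM and 1069 to 1719 for ATR. ATM was at 2.84, 3.01 and 3.17 FPKM in si-SCR and 2.80 and 2.75 in si-circVAMP3. ATR was at 2.37, 2.38 and 2.48 FPKM in si-SCR and 2.12 and 2.13 in si-circVAMP3. Both genes were lower in the si-circVAMP3 libraries than in every control, by a margin that for ATM was within the spread of the controls. The log2 difference of ATM was −0.11 (95% interval −0.30 to 0.08, limma-adjusted p = 0.35) and that of ATR was −0.17 (95% interval −0.36 to 0.01, adjusted p = 0.138). Limma voom on the recovered reads called ATR (−0.18, adjusted p = 0.0301), while the adjusted p over the alternatives ran from 0.0301 to 0.341. ATRIP showed 0.07 (95% interval −0.14 to 0.28), and 26.7% of its exon bases are shared with TREX1.

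The Fanconi core complex is the ubiquitin ligase of the pathway. FANCL is its catalytic subunit, UBE2T the E2 enzyme that works with FANCL, FANCM the translocase that brings the complex to DNA, and FANCA, FANCC, FANCE, FANCF and FANCG structural subunits. Of these 8 genes 2 rose and 1 fell, with a median log2 difference of 0.03.

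UBE2T was at 52.7, 54.4 and 54.1 FPKM in si-SCR and 44.1 and 44.6 in si-circVAMP3. The replicates were tight and the groups well apart. UBE2T fell by 0.27 on the log2 scale (SE 0.0386, limma-adjusted p = 0.00385), which is the lowest adjusted p among the 46 repair genes tested, and the call held in all 17 alternative analyses. FANCE was at 8.73, 9.60 and 8.12 FPKM in si-SCR and 10.6 and 10.4 in si-circVAMP3, a log2 difference of 0.25 (SE 0.077, limma-adjusted p = 0.0474). FANCG was at 14.6, 15.4 and 15.5 FPKM in si-SCR and 18.2 and 16.9 in si-circVAMP3, a log2 difference of 0.21 (SE 0.0547, limma-adjusted p = 0.0313). Neither gene's groups overlapped, though the FANCE controls were spread over more than 1 FPKM. The FANCE call ended without si-SCR replicate 1 (0.0936) or 3 (0.0546), without si-circVAMP3 replicate 1 (0.206) or 2 (0.162), with no intensity trend (0.0746) and with library weights (0.0703), and the FANCG call without si-SCR replicate 1 (0.0731) or 2 (0.0798), without si-circVAMP3 replicate 1 (0.196) or 2 (0.0678), with no intensity trend (0.0608) and with limma voom (0.0525), all limma-adjusted p.

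The other 5 core genes gave log2 differences of −0.11 for FANCL (95% interval −0.32 to 0.10), −0.10 for FANCC (−0.26 to 0.06), 0.02 for FANCM (−0.24 to 0.29), 0.04 for FANCA (−0.10 to 0.18) and 0.15 for FANCF (−0.08 to 0.38). The E2 enzyme and its ligase subunit FANCL thus both had a value under 0, but FANCL was not called and its groups overlapped. Over the alternatives the log2 difference of FANCL ran from −0.227 to −0.0008. FANCF was called higher with library weights (limma-adjusted p = 0.0474) and without si-SCR replicate 3 (0.24, limma-adjusted p = 0.036, and 0.036 to 0.641 over the alternatives).

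FANCD2 and FANCI form the ID2 clamp that the core complex ubiquitinates, and these partners moved in opposite directions. FANCD2 was at 36.2, 38.5 and 39.3 FPKM in si-SCR and 30.9 and 31.6 in si-circVAMP3. FANCI was at 23.4, 23.5 and 24.6 FPKM in si-SCR and 26.9 and 27.1 in si-circVAMP3. The groups did not overlap for either gene. The log2 difference was −0.28 for FANCD2 (SE 0.0491, limma-adjusted p = 0.00806) and 0.18 for FANCI (SE 0.0439, adjusted p = 0.0243). The FANCD2 call ended without si-circVAMP3 replicate 1 (0.0686) or 2 (0.0553), and the FANCI call without si-SCR replicate 1 (0.0596) or 2 (0.0849), without si-circVAMP3 replicate 1 (0.116) or 2 (0.133) and with no intensity trend (0.0598), all limma-adjusted p. Within each library the ratio of FANCI to FANCD2 FPKM was 0.645, 0.612 and 0.624 in si-SCR and 0.868 and 0.857 in si-circVAMP3. This pair too was chosen after the calls were seen, so its ratio describes them and does not test them.

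The structure-specific nucleases cut crossed or branched DNA. MUS81 is the catalytic subunit, EME1 its partner, and SLX4 the scaffold that binds several nucleases. MUS81 was at 4.65, 4.32 and 3.995 FPKM in si-SCR and 3.33 and 3.58 in si-circVAMP3. The control values were spread, yet all lay above the si-circVAMP3 values. MUS81 fell by 0.31 on the log2 scale (SE 0.0856, limma-adjusted p = 0.0343), and its call ended without si-SCR replicate 1 (0.0764) or 2 (0.0977) or si-circVAMP3 replicate 1 (0.19) or 2 (0.102). EME1 showed 0.05 (95% interval −0.10 to 0.19) and SLX4 −0.12 (95% interval −0.34 to 0.10), and neither was called.

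Break chromatin signalling starts with H2AX, the histone that ATM marks around a break. MDC1 binds the marked histone, the ligases RNF8 and RNF168 follow, and TP53BP1 is recruited by their products and opposes resection. MDC1 was at 23.6, 24.2 and 24.6 FPKM in si-SCR and 20.1 and 17.9 in si-circVAMP3. Its si-circVAMP3 libraries differed from each other more than the controls did, and both lay lower. The log2 difference of MDC1 was −0.35 (SE 0.0597, limma-adjusted p = 0.00759), and without si-circVAMP3 replicate 2 it was −0.26 (adjusted p = 0.0543, and 0.00174 to 0.0543 over the alternatives).

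H2AX had a log2 difference as large as that of MDC1, −0.35, and was not called (95% interval −0.68 to −0.02, limma-adjusted p = 0.103). Its values were 91.7, 81.7 and 66.4 FPKM in si-SCR and 57.1 and 68.0 in si-circVAMP3. The control library with the lowest value, replicate 3, lay between the si-circVAMP3 libraries, so the groups overlapped, and without it H2AX was called at −0.47 (adjusted p = 0.011, and 0.011 to 0.439 over the alternatives), as it was with library weights (0.0191). RNF8 showed −0.21 (95% interval −0.39 to −0.03, limma-adjusted p = 0.0771), RNF168 −0.09 (−0.24 to 0.07) and TP53BP1 0.10 (−0.01 to 0.21). With library weights RNF8 was called too (−0.25, limma-adjusted p = 0.0234). Of the 5 genes 4 had a value under 0 and 1 was called in the main fit.

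**Figure D3:**
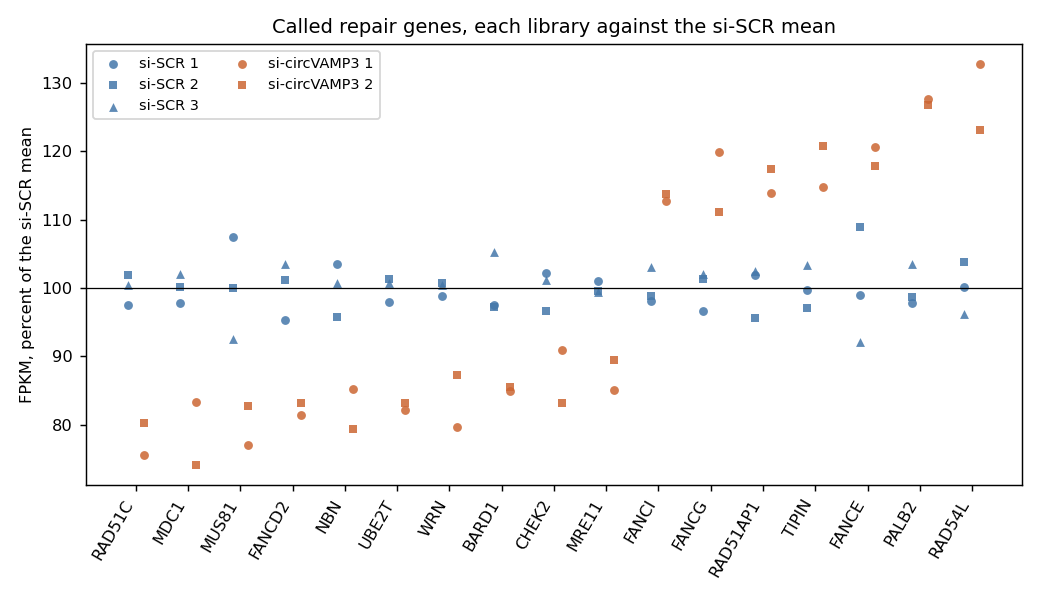
FPKM of the 17 called repair genes in each library as a percent of the gene's si-SCR mean, ordered from RAD51C to RAD54L by log2 difference, with si-SCR in blue and si-circVAMP3 in orange. In each of these genes both si-circVAMP3 libraries lie on the same side of all 3 controls. The vertical axis does not start at 0.

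Sequence just before the start site was examined in RefSeq promoter windows (GRCh38.p14), which reach from 250 bases before to 50 bases after the start and were matched by symbol for 43 of the 47 genes. The motifs searched on both strands were CCAAT, the CHR letters TTTGAA and TTCGAA and the E2F-type letters TTTCCCGC, TTTGGCGC, TTTGCCGC and TTTCGCGC. CCAAT was present in 22 of 43 windows of the repair genes (51.2%), in 35.7% of all 27305 windows and in 37.8% of those of genes tested. It was in 5 of the 8 windows of genes called lower and 4 of the 6 of genes called higher. E2F-type letters were in 7 of 43 (16.3%), against 3.33% of all windows and 5.66% of those of genes tested, and in 1 gene called lower and 0 called higher. CHR letters were in 6 of 43 (13.95%), against 16.6% of all windows and 11.2% of those of genes tested, and in 2 genes called lower and 0 called higher. In the G2 and M phase genes listed here, CHR letters were in 26 of 37 windows and CCAAT in 27. In the S phase genes, E2F-type letters were in 15 of 30 windows and CCAAT in 20.

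The windows of PALB2 and RAD54L, which rose, and of UBE2T and MDC1, which fell, are shown because these calls were among the 5 that at most 1 left-out library ended. RAD51C, also among them, held none of these motifs. Each line gives the 120 bases that end just before the start site, 5′ to 3′ on the strand of the gene, with CCAAT or its reverse complement in capitals. PALB2 lies at chr16:23641311-23641430 (minus strand), RAD54L at chr1:46247568-46247687 (plus), UBE2T at chr1:202341937-202342056 (minus) and MDC1 at chr6:30717282-30717401 (minus). All 4 stretches lie upstream of the RefSeq start. In GENCODE the genes begin further upstream, so the stretches of RAD54L and MDC1 lie wholly and those of PALB2 and UBE2T partly inside the gene. Each stretch holds a single match, on the strand of the gene in UBE2T and MDC1 and on the other strand in PALB2 and RAD54L. The full windows hold more matches that lie outside the stretches or cross their ends. These are CHR letters and another CCAAT match in UBE2T and in MDC1, and another CCAAT match in RAD54L.
PALB2: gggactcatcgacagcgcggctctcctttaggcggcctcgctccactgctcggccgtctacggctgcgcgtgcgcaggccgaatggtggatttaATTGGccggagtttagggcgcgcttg
RAD54L: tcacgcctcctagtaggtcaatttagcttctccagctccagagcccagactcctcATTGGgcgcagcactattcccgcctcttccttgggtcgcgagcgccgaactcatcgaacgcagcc
UBE2T: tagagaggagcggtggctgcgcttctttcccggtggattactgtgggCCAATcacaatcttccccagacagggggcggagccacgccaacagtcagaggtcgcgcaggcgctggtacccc
MDC1: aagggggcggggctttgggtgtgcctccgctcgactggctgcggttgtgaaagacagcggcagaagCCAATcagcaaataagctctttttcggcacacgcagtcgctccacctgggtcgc

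Other genes of the same pathways were read from further lists. Of 34 other homologous recombination genes 30 were tested, 4 had no row (DMC1, SLX1A, SLX1B and RAD51AP2), 5 fell and 4 rose, and the median log2 difference was 0.03. Over the left-out libraries 2 to 4 fell and 0 to 3 rose, with 0 rises without si-SCR replicate 2 or either si-circVAMP3 library. The largest called differences were SWI5 (−0.52), CTC1 (0.52), ZSWIM7 (−0.34) and RPA1 (−0.30). CTC1 was near the floor, at a mean of 0.7115 FPKM in si-SCR and 1.06 in si-circVAMP3, and with a floor of 1 FPKM 3 genes of this list rose. RPA1 is the large subunit of the protein that coats single-stranded DNA. RPA2, the middle subunit of that protein, named after its value was seen, rose by 0.20 (limma-adjusted p = 0.0147). Of 16 other Fanconi pathway genes 1 fell (ERCC1, −0.49) and 1 rose (CENPX, 0.44), with a median of 0.02. The fall was lost without either si-circVAMP3 library, and without si-SCR replicate 3 the rises numbered 3. ERCC1 is part of the nuclease that unhooks crosslinks. Of 10 other checkpoint genes, RAD9A rose (0.50), a call that ended without either si-circVAMP3 library, and the other 9 were not called, CHEK1 (named for its part in the ATR signal) among them at 0.03 (95% interval −0.12 to 0.17).

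In the 53BP1 and BRCA1-A complexes 2 of 15 genes fell (SHLD2, −0.44, and BABAM2, −0.32) and 2 rose (BABAM1, 0.23, and PAXIP1, 0.17). These counts fell to 0 to 1 each when a library was left out, and to 1 and 0 with no intensity trend. Among 14 end joining genes, which rejoin ends without a template, 2 fell (LIG4, −0.40, and XRCC1, −0.30) and 3 rose, led by DCLRE1C (0.41) and PRKDC (0.25), where leaving out a library gave 0 to 2 falls and 0 to 3 rises. Apart from the checkpoint genes, which had a single call, these lists had calls in both directions, at shares of 6.25% to 16.7% lower and 6.25% to 21.4% higher, where all genes tested had 15.8% and 14.4%.

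Cell cycle genes moved with the groups and are given beside the repair genes for that reason. Of 39 S phase genes 14 (35.9%) rose and 3 (7.69%) fell, with a median log2 difference of 0.13, against 14.4% and 15.8% of all genes tested. CCNE2 (0.44) and UNG (0.30) rose, while DSCC1 (−0.36) and CDCA7 (−0.32) fell. Of 44 G2 and M phase genes 19 (43.2%) fell and 1 rose (KIF2C, 0.28, named after its value was seen), with a median of −0.13. ANLN (−0.70), PLK1 (−0.67), CDCA3 (−0.58) and CENPA (−0.55) fell most. The S phase count fell to 6 without si-SCR replicate 2, to 3 without si-circVAMP3 replicate 1, to 1 without si-circVAMP3 replicate 2, and to 9 with no intensity trend. The part of cell cycle stage in the values of the repair genes was not tested.

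Regulators of these genes were mixed. Of 20 E2F and DREAM factors 6 rose and 3 fell, with MYBL2 (−0.99), E2F5 (0.63), E2F3 (0.43) and LIN52 (0.39) leading. Over the left-out libraries 3 to 6 rose and 1 to 3 fell. Of 22 p53 target genes 20 were tested, 4 fell and 3 rose (3 to 4 and 2 to 3 over the left-out libraries). TP53INP1 (−1.33) and MDM2 (−0.73) fell, while CDKN1A, the p21 inhibitor of cyclin-dependent kinases, rose by 0.67 and PMAIP1 by 0.39. TP53INP1 was near the floor, at a mean of 1.10 FPKM in si-SCR and 0.3775 in si-circVAMP3, and with a floor of 1 FPKM 3 of these targets fell. So the p53 targets listed here had no common direction.

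Several muscle markers were lower in si-circVAMP3. Of 9 tested 5 fell and 0 rose by limma, also at an unadjusted p under 0.05 and by limma voom, where the rises again numbered 0, with MYOG (−0.76), CHRNG (−0.61), MYL4 (−0.60) and TNNT2 (−0.46) leading. Over the left-out libraries 3 to 6 fell and 0 rose. The other 4 were not called, MYOD1 at 0.20 (95% interval −0.13 to 0.53), DES at −0.11 (−0.29 to 0.08), CHRNA1 at −0.06 (−0.16 to 0.04) and CDH15 at −0.35 (−0.77 to 0.07). Among the fusion-associated markers FOXO1 fell (−0.28) and 8 of 9 were not called. The 3 fibroblast markers tested were not called, with log2 differences of −0.22 to −0.07, while COL3A1 (−0.18, limma-adjusted p = 0.0523) passed at an unadjusted p under 0.05 and limma voom called 1 of the 3 lower. The part of these markers in the values of the repair genes was not tested.

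**Figure D4:**
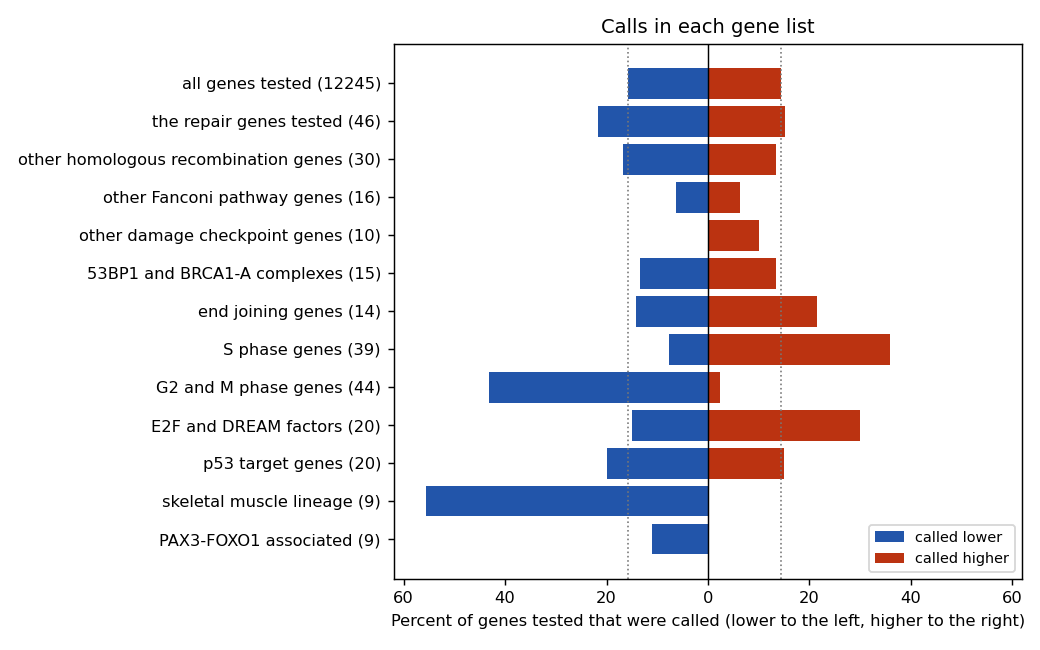
Percent of the genes tested in each list (number in brackets) that were called lower, to the left in blue, or higher, to the right in red, with dotted lines at the 15.8% and 14.4% of all genes tested. The repair genes reach 21.7% and 15.2%, the S phase genes lean to higher and the G2 and M phase genes to lower.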

How the data were processed

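Libraries were prepared by the authors with a stranded poly-A kit and sequenced as paired ends. Per the study's methods and the submitters' processing notes, reads were called with bcl2fastq 2.20.0.422, trimmed with Trimmomatic, aligned to GRCh38 with STAR 2.5.2b and counted per gene with HTSeq in strict, reverse-stranded mode. The deposited FPKM values were computed by the authors with edgeR after genes with few reads were removed.

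From there, log2(FPKM + 0.1) of genes with a mean of at least 0.5 FPKM over the 5 libraries was fitted with limma 3.58.1 in R 4.3.3, with an intensity trend and no covariate, and p-values were adjusted by Benjamini-Hochberg over all genes tested. A gene was called at an adjusted p under 0.05, and differences are on that log2 scale, which understates changes of low genes. The fit was tested on simulated data. Of the gene IDs, 13783 matched a symbol. An item is not reported here. Exon sharing was read from the GENCODE annotation, and promoters from RefSeq. The rule for naming was values in every library for all called repair genes, 7 of general interest and the host gene, log2 differences for the other repair genes, and, from each further list, up to 4 called genes by size of change. RAD50, H2AX, CHEK1, MYOD1, DES, CHRNA1, CDH15, COL3A1, RPA2 and KIF2C were added to these after their values were seen. The members and lists were chosen with earlier results of these data known. Alternatives changed the pseudocount, filter, scaling, variance model and libraries. Limma voom on recovered reads was chosen after seeing the data.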

Additional observations from a re-analysis of the deposited data

How the results depend on the processing

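With 2 libraries in the si-circVAMP3 group, the calls depend on each library. Leaving out each library in turn gave 1284 to 4002 genes called, 2 to 9 repair genes called lower and 1 to 9 called higher, a median log2 difference of the repair genes of −0.040 to 0.0093, 1 to 16 S phase genes called higher and 0 to 3 lower, and 0 to 1 G2 and M phase genes called higher, while 13 to 19 of the latter were called lower. A fit with fewer libraries has less power, yet without si-SCR replicate 3 the genes called rose to 4002 from 3701. Of the 12245 genes tested, 1640, 1221 and 2016 were called lower without si-SCR replicates 1, 2 and 3. In the same fits 1403, 963 and 1986 were called higher. The main fit called 1936 lower and 1765 higher. The cause of these moves was not tested. A pseudocount of 1 left 334 genes past both limits, since it shrinks differences of low genes, against 683. With no intensity trend 3 repair genes and 9 S phase genes were called higher, next to 1389 of all 12245 genes tested. With library weights 12 repair genes and 2 G2 and M phase genes were called higher, next to 2437 of 12245. The cause was not tested. Other scalings kept the median log2 difference over all genes between −0.00070 and 0.011.

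Replicate numbers 1 and 2 occur in both groups, but nothing ties them to a shared day or batch. Deviations from the group means correlated at −0.13 for number 1 and −0.034 for number 2, so the numbers were not taken as pairs. With the replicate block 3154 of 12245 genes were called (1678 lower and 1476 higher), 692 of them past the fold limit. The calls included 8 repair genes lower and 7 higher (median log2 difference 0.01). In either direction these were 32.6% of the repair genes tested, against 25.8% of all genes tested. Also called were 11 S phase genes higher and 3 lower, and 16 G2 and M phase genes lower and 1 higher. Of the 17 repair gene calls, 11 were shared with that fit, and the other 6 were MRE11, WRN, BARD1, CHEK2, FANCE and FANCG. That fit also called EXO1, XRCC3, RAD54B and H2AX, as did the fit without si-SCR replicate 3. No si-circVAMP3 library carries number 3, so the blocked difference does not use si-SCR replicate 3. The log2 difference of H2AX, for example, was −0.474 in both fits.

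Of the log2 differences of single genes over the alternatives, 692 kept their direction and their side of the limit, 67 lost a call, 22 gained one and 16 changed sign, all 16 in genes that were not called and whose values were near 0. BRCA1 took 0.00090 with library weights, 0.0027 with the block and without si-SCR replicate 3, and −0.059 to 0.014 over the left-out libraries (0.014 without si-circVAMP3 replicate 2). BRCA2 took 0.0011 with upper quartile scaling, 0.016 with the block and without si-SCR replicate 3, 0.018 without si-SCR replicate 2 and −0.053 to 0.051 over the left-out libraries (0.051 without si-circVAMP3 replicate 2). XRCC2 took −0.0034 with TPM rescaling, −0.043 and −0.019 without si-SCR replicates 1 and 2, and −0.014 without si-circVAMP3 replicate 1, with 0.079 as the highest over the left-out libraries. Over these libraries BRIP1 ran from −0.00070 (without si-SCR replicate 1) to 0.084, FANCM from −0.025 (without si-SCR replicate 2) to 0.098 and RAD52 from −0.16 to 0.021 (without si-circVAMP3 replicate 1). RAD51B and RAD54B gave no value with a floor of 1 FPKM.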

Other observations

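Partners within complexes, picked out after their values were seen, had unequal changes in several places. The ratio within a library had a log2 difference of 0.58 for PALB2 against BARD1 and 0.46 for FANCI against FANCD2, which restates the calls of these genes.

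RPA1 and RPA2, subunits of the same complex, also moved apart, at log2 differences of −0.30 (limma-adjusted p = 0.00563) and 0.20 (adjusted p = 0.0147). BABAM1 and BABAM2, of the BRCA1-A complex, were at 0.23 (limma-adjusted p = 0.0271) and −0.32 (adjusted p = 0.0493). Leaving out 1 of the 5 libraries ended the call in 1 of 5 fits for RPA1, 3 for RPA2, 3 for BABAM1 and all 5 for BABAM2. The difference between partners was not tested in these pairs.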
